A study of Mus musculus with 8 samples.

Results

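Acetylcholine is made in neurons from choline and acetyl-CoA by choline acetyltransferase (Chat), loaded into vesicles by the vesicular acetylcholine transporter (Slc18a3), and broken down outside the cell by acetylcholinesterase (Ache), after which the high-affinity choline transporter (Slc5a7) takes choline back up. It acts on nicotinic receptors, which are ion channels, and on muscarinic receptors, which couple to G proteins. Chrm1, Chrm3 and Chrm5 couple mainly to Gq/11 and Chrm2 and Chrm4 mainly to Gi/o, and Chrm1 and Chrm3 are known for their part in rapid eye movement sleep. The 5 muscarinic receptor genes and the 4 genes of acetylcholine handling were taken by symbol from the deposited count table, 9 of 54532 genes. All 9 passed the filter on low counts, which kept 16062 genes.

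RNA was sequenced from brain tissue of 3-month-old male mice, with 4 libraries from wild-type (WT) animals and 4 labelled Nsun5-KO, which lack by label the ribosomal RNA methyltransferase Nsun5. The labels put 5 animals of each genotype in a single litter, killed under pentobarbital sodium (50 mg/kg), and do not say how the allele was made. The series asks what the loss of Nsun5 does to myelin and to sleep.

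The libraries held 15642086 to 17829523 counts. A count of 0 allows up to 3 counts, or 0.170 to 0.192 CPM (the count scaled to a common library size), by counting error alone. Nsun5 did not bear out the labels: 82 to 109 of its reads were counted in each WT library and 83 to 124 in each Nsun5-KO library, so "Nsun5-KO" below stands for the label and every direction is that of the label. The samples are described as brain, and hindbrain genes were uneven among them. Hoxb3, Hoxa3, Hoxa4, Hoxb4, Hoxa5 and Hoxb5 had 0 to 3 counts in each library, and Mnx1 and Tbx20, transcription factors of hindbrain and spinal motor neurons, had 0 to 2. Slc6a5, of brainstem and spinal glycinergic neurons, had 31, 2, 0 and 12 counts in WT and 37, 23, 124 and 60 in Nsun5-KO (log2 fold change 2.46, edgeR adjusted p = 0.435). Tph2 and Slc6a4, of raphe serotonin neurons, had 8 to 114 and 0 to 84 counts, and Pcp2 and Gabra6, of the cerebellum, 0 to 30. WT replicates 1 and 2 stood apart from the other 6 libraries on the first principal component (-29.71 and -36.02 against 1.75 to 23.77).

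None of the 9 genes differed between the genotypes at an adjusted p below 0.05 in edgeR's quasi-likelihood test over all genes, where 0 of 16062 genes (0%) were called. DESeq2 called 0 of the 9 and 94 genes in all, 0.583% of those it tested. At an unadjusted edgeR p below 0.05, Chrm1 and Chrm3 lay above WT and Ache below it, 3 of 9 genes against 10.4% of all genes. By level per length, in FPKM (fragments scaled by gene length and library total) and averaged over 8 libraries, the order was Chrm1 (25.3), Chrm4 (19.1), Ache (15.2), Chrm3 (9.31), Chrm2 (3.68), Slc5a7 (1.82), Slc18a3 (1.15), Chat (1.03) and Chrm5 (1.03). The ranges of the last 4 over the libraries overlapped (0.351 to 2.93 for Slc5a7, 0.257 to 2.17 for Slc18a3, 0.303 to 1.96 for Chat and 0.317 to 2.81 for Chrm5), as did those of Chrm4 (11.5 to 21.7) and Ache (10.6 to 18.7). The second place of Chrm4 rests on a gene model of 1440 bases that holds a coding length alone. In CPM, which is not scaled by length, Chrm4 (25.6 in WT and 29.7 in Nsun5-KO) was below Ache (78.3 and 63.5) and Chrm3 (52.4 and 64.9).

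**Figure D1:**
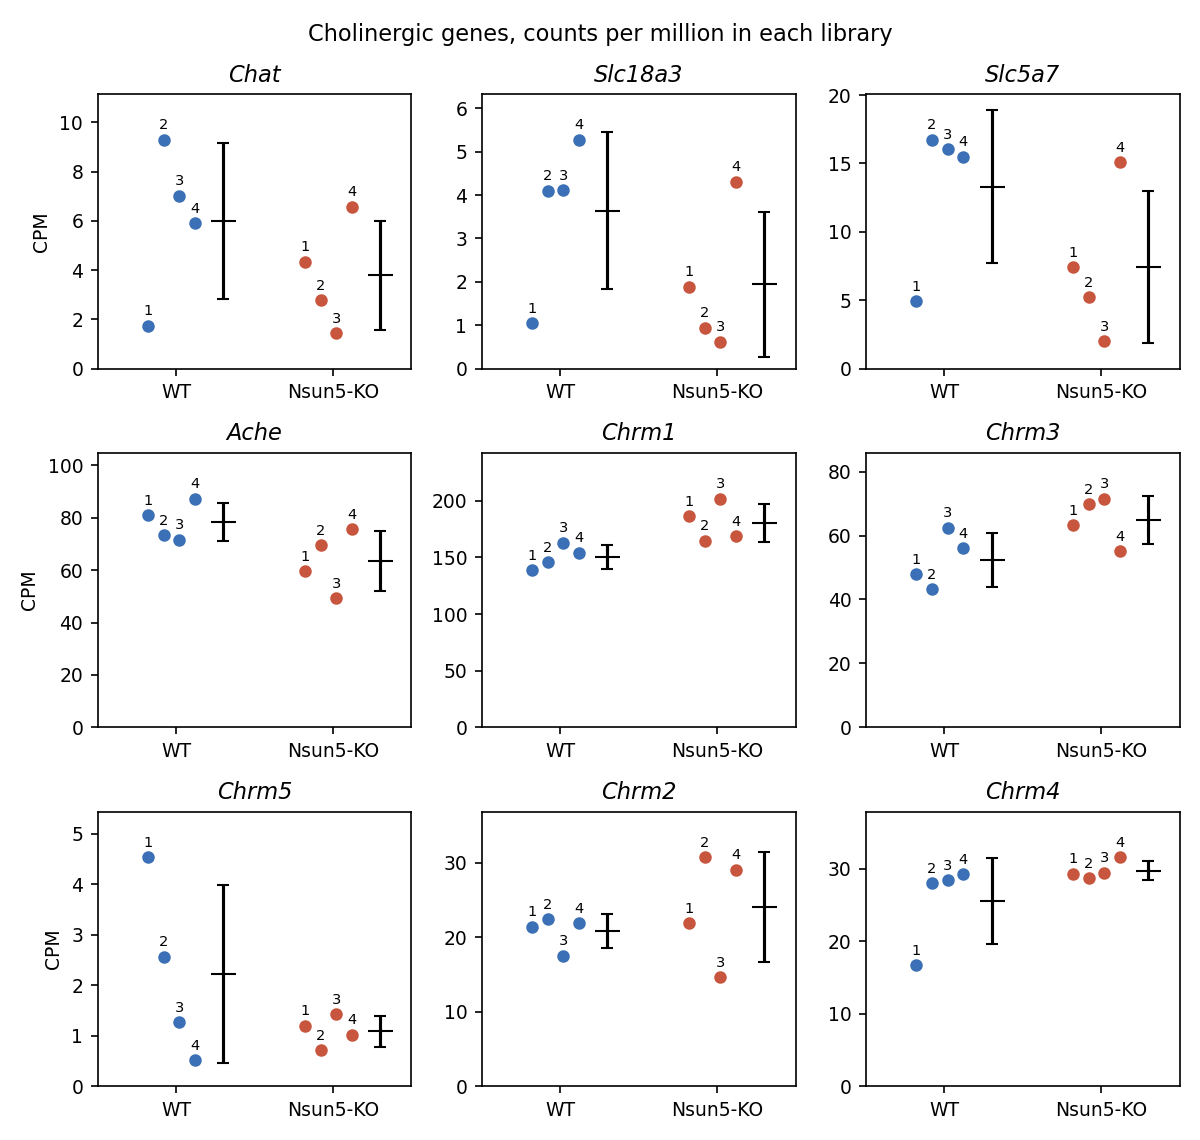
CPM (linear axes from 0) of the 9 genes in each library, numbered by replicate, for WT (blue) and Nsun5-KO (red); black bars are the mean ± SD of 4 libraries. Chat, Slc18a3 and Slc5a7 spread over 6.50-fold to 8.48-fold among libraries, and the 2 genotypes are separate in Chrm1 alone among the 9.

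The 3 genes that define a cholinergic neuron were sparse and varied far more between libraries than between genotypes. Chat (ENSMUSG00000021919, chromosome 14, 32408203 to 32465989, minus strand, mm10) and Slc18a3 (ENSMUSG00000100241, 32462438 to 32464850) form the cholinergic locus: in GENCODE M21, whose coordinates equal those of the count table for all 9 genes, Slc18a3 is a single exon inside the first intron of the 4 Chat transcripts that span it. The genes share a strand, so reads over Slc18a3 cannot be assigned by strand, and the antisense gene Gm2990, which overlaps 948 bases of Chat, had 1 to 15 counts. The regions around their start sites are shown because these 3 genes were highest in the same 4 libraries, each as 250 bases before to 50 after the start from RefSeq (GRCm38.p6): chr14:32465860-32466159 for Chat, chr14:32464801-32465100 for Slc18a3 and chr17:54298985-54299284 for Slc5a7, all on the minus strand. Capitals mark the E-box CANNTG and TGACG, the core of cyclic AMP response elements, searched on both strands.
Chat: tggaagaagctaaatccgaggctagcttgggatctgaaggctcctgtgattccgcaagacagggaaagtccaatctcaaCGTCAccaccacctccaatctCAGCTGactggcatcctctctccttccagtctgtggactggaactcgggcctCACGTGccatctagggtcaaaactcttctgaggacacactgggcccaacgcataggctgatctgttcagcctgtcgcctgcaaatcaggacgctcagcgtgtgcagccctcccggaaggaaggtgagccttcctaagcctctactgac
Slc18a3: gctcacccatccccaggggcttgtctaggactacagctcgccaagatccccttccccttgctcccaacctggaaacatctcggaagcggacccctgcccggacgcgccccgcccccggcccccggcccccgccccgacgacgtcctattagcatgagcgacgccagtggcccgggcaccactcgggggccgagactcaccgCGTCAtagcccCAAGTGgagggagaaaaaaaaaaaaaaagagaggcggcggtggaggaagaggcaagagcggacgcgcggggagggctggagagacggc
Slc5a7: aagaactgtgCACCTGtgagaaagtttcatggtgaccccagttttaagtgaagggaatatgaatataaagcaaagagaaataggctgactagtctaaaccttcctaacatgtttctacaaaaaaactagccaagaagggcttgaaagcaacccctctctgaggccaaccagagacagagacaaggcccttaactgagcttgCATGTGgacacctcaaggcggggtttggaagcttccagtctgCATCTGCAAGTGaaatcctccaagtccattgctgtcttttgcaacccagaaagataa
The 3 windows differ in composition, with a GC content of 55.7% at Chat, 67% at Slc18a3 and 44.7% at Slc5a7 against a median of 52.7% over 32851 promoters. Chat held 2 E-boxes and 1 TGACG, Slc18a3 held 1 of each, and Slc5a7 held 4 E-boxes and 0 of the other. An E-box occurs in 72.3% of all promoters of this length and TGACG in 20.8%, so neither is rare. The GC box GGGCGG (35.7% of promoters) was found 2 times at Slc18a3 and 0 times at the other two. The letters of the TATA box, TATAAA (13.6%), were found 1 time at Slc5a7 alone of the 3, toward the upstream end of the window and not near the start site. TTCAGCACC, a part of the RE1 silencer element, (0.371%) was found at none of the 3. Matches were of letters alone, without regard to position. Of the 9 genes, 8 matched a promoter in the RefSeq table.

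Chat was at 1.74, 9.30, 7.02 and 5.90 CPM in WT replicates 1 to 4 and at 4.34, 2.78, 1.43 and 6.58 CPM in Nsun5-KO. WT replicate 1 lay among the low Nsun5-KO libraries and Nsun5-KO replicate 4 among the high WT libraries, so the groups overlapped. The log2 fold change was -0.65 (SE 0.56, 95% interval -1.95 to 0.64, edgeR adjusted p = 0.74). Slc18a3 was at 1.05, 4.10, 4.11 and 5.28 CPM in WT and at 1.89, 0.945, 0.622 and 4.31 CPM in Nsun5-KO (a log2 fold change of -0.89, SE 0.64, with an edgeR adjusted p = 0.677). Its counts were 10 to 93 in a library, and its groups overlapped in the same way. Slc5a7 (ENSMUSG00000023945, chromosome 17, 54273590 to 54299034) was at 4.94, 16.7, 16.0 and 15.5 CPM in WT and at 7.42, 5.20, 1.99 and 15.1 CPM in Nsun5-KO (a log2 fold change of -0.83, SE 0.62, with an edgeR adjusted p = 0.697). The intervals of all 3 genes include a log2 fold change of -1 as well as values above 0, so a genotype difference of that size was neither shown nor excluded.

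The same 4 libraries, WT replicates 2, 3 and 4 and Nsun5-KO replicate 4, were the highest for each of the 3 genes. For Slc5a7 and Slc18a3 they formed a separate set, since the lowest of them was 2.03-fold and 2.18-fold above the next library; for Chat that step was 1.36-fold. Libraries in separate sets allow no pooled correlation, and each set of 4 is too small for its own. The sum of 12 striatal genes, the markers of medium spiny neurons among them, was highest in the same 4 libraries as well: it was 647, 2839, 2001 and 2323 CPM in WT and 1744, 1183, 827 and 2691 CPM in Nsun5-KO. No defining striatal marker was at 0 in any library, and Drd2, for instance, ranged from 14.2 to 76.9 CPM. Whether the striatal content of the tissue plays a part in the values of Chat, Slc18a3 and Slc5a7 was not tested, and in bulk tissue fewer cells of a type and less RNA per cell cannot be told apart. Without WT replicate 1 and Nsun5-KO replicate 3, the libraries with the lowest striatal sum in each group, the log2 fold change was -0.69 for Chat, -0.91 for Slc18a3 and -0.80 for Slc5a7.

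**Figure D2:**
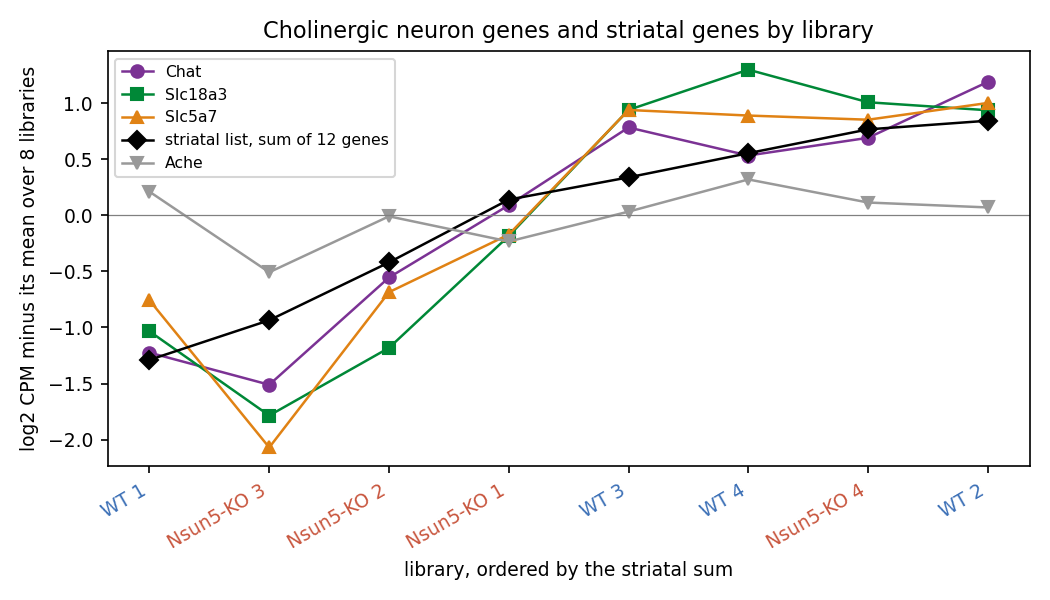
Log2 CPM of Chat, Slc18a3, Slc5a7, Ache and the summed 12 striatal genes, each minus its own mean over 8 libraries, with libraries ordered by the striatal sum (WT labels blue, Nsun5-KO labels red). The 3 cholinergic neuron genes and the striatal sum are low in WT replicate 1 and Nsun5-KO replicates 2 and 3 and high in WT replicates 2, 3 and 4 and Nsun5-KO replicate 4, while Ache follows another order.

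The genes whose profile over the 8 libraries was nearest to that of Chat were Penk, Nexn, Drd2, Lrrc10b and Pde10a, with a root mean square difference in centred log2 CPM of 0.17, 0.24, 0.26, 0.27 and 0.28 (median of all genes 0.91). Penk, Drd2 and Pde10a are members of the striatal list. Penk, the enkephalin precursor gene, was at 83.2, 345, 275 and 299 CPM in WT and at 195, 144, 77.5 and 345 CPM in Nsun5-KO.

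Other genes that mark cholinergic neurons had lower levels under the Nsun5-KO label. Of a list of 13 identity genes, 9 were tested and the fold change was below 0 for each of the 9, against 51.4% of all tested genes. Their median was -1.21 (-0.005 over all tested genes), and 0 passed the test over all genes. At an unadjusted p below 0.05, 4 of 9 were lower, against 5.05% of all genes. Ngfr, the p75 neurotrophin receptor of basal forebrain cholinergic neurons, was at 3.02, 3.27, 8.23 and 5.22 CPM in WT and at 2.26, 2.07, 1.62 and 2.33 CPM in Nsun5-KO. These groups did not overlap, as in 2.71% of all genes in this direction (log2 fold change -1.25, SE 0.31, edgeR adjusted p = 0.313). Ecel1, an endopeptidase gene, was at 29.3 ± 10.1 CPM in WT and 12.6 ± 4.28 CPM in Nsun5-KO (SD, n = 4 each; edgeR adjusted p = 0.313), and Zic4, a transcription factor gene, at 6.82 ± 2.95 and 3.39 ± 0.735 CPM (edgeR adjusted p = 0.412). The transcription factor genes of forebrain cholinergic neurons Lhx8 and Isl1 had log2 fold changes of -1.91 and -1.21. The summed list was highest in the same 4 libraries as Chat, at 53.5 to 95.1 CPM, though WT replicate 1 came close at 52.2 CPM. The hypothalamic list, which shares no gene with it, was below WT in 8 of 8 tested genes as well (median -2.05), with a sum of 24.2 to 135 CPM in WT and 8.52 to 25.5 CPM in Nsun5-KO. The same held for 4 more lists: striatum (12 of 12, median -0.38), choroid plexus and ependyma (8 of 8, median -0.998), medial habenula (7 of 7, median -0.19) and oligodendrocytes (8 of 8, median -0.40, 7 of them at an unadjusted p below 0.05). The oligodendrocyte sum was 6730 to 7368 CPM in WT and 4387 to 6085 CPM in Nsun5-KO, and the habenular sum 70.8 to 87.0 and 59.9 to 69.8 CPM, both without overlap. The share of 2.71% for single genes is not a like background for sums. Taken singly, 5 of 8 tested oligodendrocyte genes and 3 of 7 tested habenular genes did not overlap. Nwd2, the largest part of the habenular sum, did overlap (mean of 50.2 CPM in WT and 48.1 CPM in Nsun5-KO). The part of the cells of these other lists in the values was not tested.

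Ache (ENSMUSG00000023328, chromosome 5, 137287519 to 137294466) was far more abundant than Chat and less variable. It was at 80.9, 73.4, 71.5 and 87.3 CPM in WT and at 59.5, 69.5, 49.2 and 75.7 CPM in Nsun5-KO. Nsun5-KO replicates 1 and 3 were the lowest of the 8 libraries, and replicate 4 lay within the WT range. The log2 fold change was -0.30 (SE 0.12, 95% interval -0.57 to -0.03), with an edgeR adjusted p = 0.436 and an exact two-sided permutation p = 0.114. Without Nsun5-KO replicates 1 and 3 it was -0.11, a shift that leaving out the 2 lowest libraries brings by itself. The sum of 10 thalamic and midbrain genes was lowest in the same 2 libraries, at 161 and 193 CPM against 281 to 408 CPM in the other 6, and its part was not tested. Ache lies 1.91 Mb from Nsun5 on the same chromosome. The antisense-strand gene Gm42456 overlaps 1144 bases at its start and had 3 to 9 counts.

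Bche, which encodes butyrylcholinesterase, the second enzyme that splits acetylcholine, had the smallest p among the genes of choline supply and acetylcholine breakdown. It was at 9.71, 8.98, 7.74 and 9.25 CPM in WT and at 6.60, 5.49, 6.09 and 5.62 CPM in Nsun5-KO. Every Nsun5-KO library lay below every WT library, as in 2.71% of all tested genes, and Bche was the only one of the 11 tested list members without overlap. The log2 fold change was -0.58 (SE 0.13), and the edgeR adjusted p = 0.307 did not pass. Prima1, the membrane anchor of acetylcholinesterase in the brain, was at 6.26 ± 1.94 and 4.42 ± 1.90 CPM (log2 fold change -0.50), and Slc10a4, a vesicular protein of cholinergic and monoaminergic neurons, at 8.38 ± 2.78 and 3.58 ± 2.73 CPM (-1.22). Slc44a1, a widely expressed choline transporter, was at -0.15. Of the 11 tested members 0 were called, 1 was lower at an unadjusted p below 0.05, near the 5.05% of all genes, and the median was -0.08.

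Among the muscarinic receptors, Chrm1 (ENSMUSG00000032773, chromosome 19, 8663789 to 8683587), the main Gq/11-coupled receptor of cortex and hippocampus, was the only one of the 9 genes whose groups did not overlap, which 5.70% of all tested genes did not in either direction. It was at 139, 146, 163 and 154 CPM in WT and at 186, 165, 202 and 169 CPM in Nsun5-KO. The lowest Nsun5-KO library, replicate 2, lay just above the highest WT library, replicate 3. In 2.99% of all tested genes the groups were separate in this direction. On the log2 scale Chrm1 differed by 0.26 (SE 0.08, 95% interval 0.08 to 0.44), with an edgeR adjusted p = 0.346 and an exact permutation p = 0.0286, the smallest that 70 labelings allow. Chrm3 (ENSMUSG00000046159, chromosome 13, 9875486 to 10360847), also coupled to Gq/11, was at 48.0, 43.3, 62.4 and 56.0 CPM in WT and at 63.2, 69.7, 71.6 and 55.1 CPM in Nsun5-KO. Nsun5-KO replicate 4 lay within the WT range (log2 fold change of 0.31, SE 0.12, edgeR adjusted p = 0.413, exact permutation p = 0.114). The sum of 12 genes of cortex and hippocampus was 1561 to 2023 CPM in WT and 2006 to 2537 CPM in Nsun5-KO, with 10 of 12 members above WT and a median of 0.37, and its part in the values of Chrm1 and Chrm3 was not tested. The profiles nearest to Chrm1 were those of Zfp365, Med13l, Mtmr12, Dpp9 and Ext1, at a root mean square difference of 0.035 to 0.048 (median of all genes 0.24).

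Chrm5 (ENSMUSG00000074939, chromosome 2, 112479171 to 112480769), the receptor of midbrain dopamine neurons, was sparse, with 78, 40, 21 and 9 counts in WT and 19, 12, 23 and 18 in Nsun5-KO. WT replicates 1 and 2 were the highest, at 4.54 and 2.56 CPM against 0.51 to 1.43 CPM in the other 6 libraries. The log2 fold change of -1.03 (SE 0.55, edgeR adjusted p = 0.558) was -0.40 without WT replicate 1 and 0.29 without both. Leaving out the 2 highest libraries, both WT, raises the fold change by itself, so the change of sign shows only that the value rests on them. Of 8 genes of midbrain dopamine neurons, a list chosen after its values were seen, 4 had the same 2 libraries at the top: Slc6a3, the dopamine transporter gene (75.7 and 14.7 CPM against 0.118 to 2.39 CPM in the others), Th, Ddc and Slc18a2. The other 4 did not. Pitx3, En1 and Aldh1a1 were highest in WT replicate 1 but not next in WT replicate 2, and Nr4a2 was highest in Nsun5-KO replicate 3 (91.9 CPM). The list sum was 384 CPM in WT replicate 1, while WT replicate 2 (149 CPM) lay among the Nsun5-KO libraries (147 to 153 CPM). Chrna6, the nicotinic subunit of those neurons, reached 11.4 CPM in WT replicate 1 against 0.187 to 3.25 CPM elsewhere. The part of dopamine neurons in the values of Chrm5 was not tested.

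Of the Gi/o-coupled receptors, Chrm2 (ENSMUSG00000045613, chromosome 6, 36388084 to 36528414), the autoreceptor of many cholinergic terminals, was at 21.4, 22.4, 17.5 and 21.9 CPM in WT and at 21.9, 30.7, 14.6 and 29.0 CPM in Nsun5-KO. The Nsun5-KO libraries held both the 2 highest and the lowest value (log2 fold change 0.21, SE 0.21, edgeR adjusted p = 0.775). The opposite-strand gene 9330158H04Rik overlaps 2108 bases of Chrm2 and had 7 to 34 counts. The thalamic and midbrain sum was 161, 408, 193 and 296 CPM in Nsun5-KO replicates 1 to 4 and 281 to 319 CPM in WT, so it was highest where Chrm2 was highest, but lowest in replicate 1, where Chrm2 lay within the WT range. Its part was not tested. Chrm4 (ENSMUSG00000040495, chromosome 2, 91927249 to 91928688), a receptor of striatal medium spiny neurons, was at 16.7, 28.0, 28.4 and 29.2 CPM in WT and at 29.3, 28.7, 29.4 and 31.5 CPM in Nsun5-KO. WT replicate 1, which had the lowest striatal sum, stood alone. The other 7 libraries lay within 28.0 to 31.5 CPM, and their striatal sums ran from 827 to 2839 CPM. The part of striatal content in the values of Chrm4 was not tested. The log2 fold change of Chrm4 was 0.22 (SE 0.15, edgeR adjusted p = 0.662) and 0.06 without WT replicate 1.

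**Figure D3:**
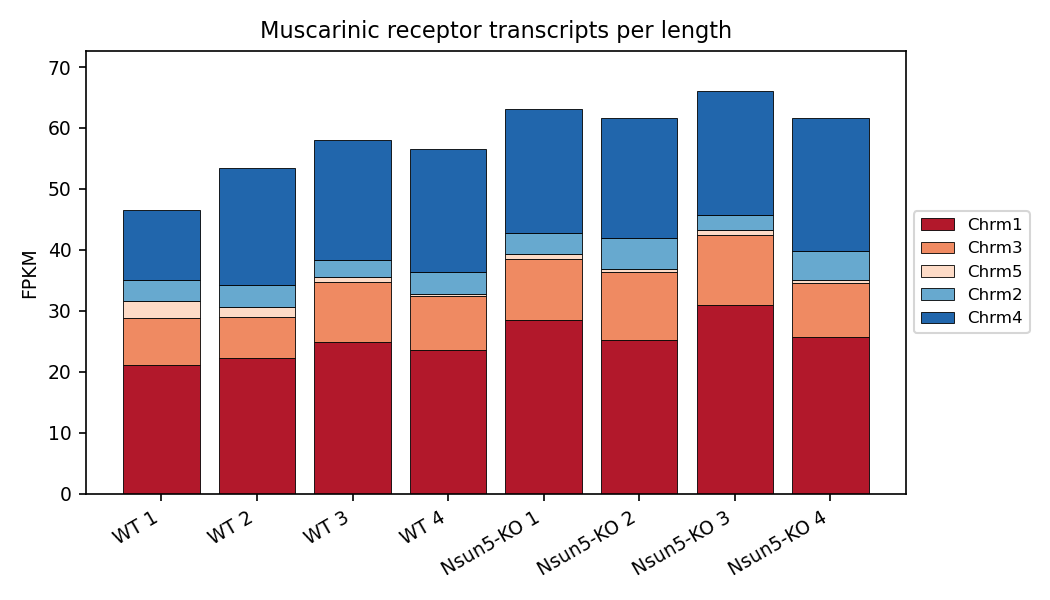
FPKM of the 5 muscarinic receptors stacked for each library, with Gq/11-coupled receptors in red shades and Gi/o-coupled receptors in blue shades. The stack is 46.6 to 58.0 in WT and 61.6 to 66.1 in Nsun5-KO, and Chrm1 is the largest part in each library.

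Per length, Chrm1 made up 42.9% ± 1.84 of the 5 receptors' FPKM in WT and 43.7% ± 2.80 in Nsun5-KO, and Chrm4 32.5% ± 5.31 and 32.6% ± 1.89 (SD, n = 4). Chrm3 made up 15.5% ± 1.87 and 16.3% ± 1.67, Chrm2 6.42% ± 1.09 and 6.31% ± 2.08, and Chrm5 2.73% ± 2.42 and 1.07% ± 0.269, the last with 6.03% in WT replicate 1. In CPM the share of Chrm4 was 10.1% ± 1.95 and 9.93% ± 0.783. The Gq/11-coupled receptors together held 67.9%, 57.3%, 61.3% and 58.0% in WT replicates 1 to 4 and 62.3%, 59.7%, 65.6% and 57.0% in Nsun5-KO. The means were 61.1% ± 4.82 and 61.1% ± 3.63, and their difference of 0.024 percentage points was smaller than either spread. With single libraries left out the difference ran from -1.45 (without Nsun5-KO replicate 3) to 2.27 (without WT replicate 1), so its sign was not settled. The summed FPKM of the 5 receptors was 46.6, 53.5, 58.0 and 56.6 in WT and 63.0, 61.7, 66.1 and 61.6 in Nsun5-KO, with no overlap. In CPM, 2.99% of single tested genes were separate in this direction. That share is not a like background for a sum of 5 genes in FPKM. Chrm1, which did not overlap by itself, is the largest part of the sum. The gene models of Chrm4 (1440 bases) and Chrm5 (1599 bases) hold a single exon whose length is a multiple of 3, a coding length, while those of the other 3 receptors run over 6053 to 6487 bases.

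**Figure D4:**
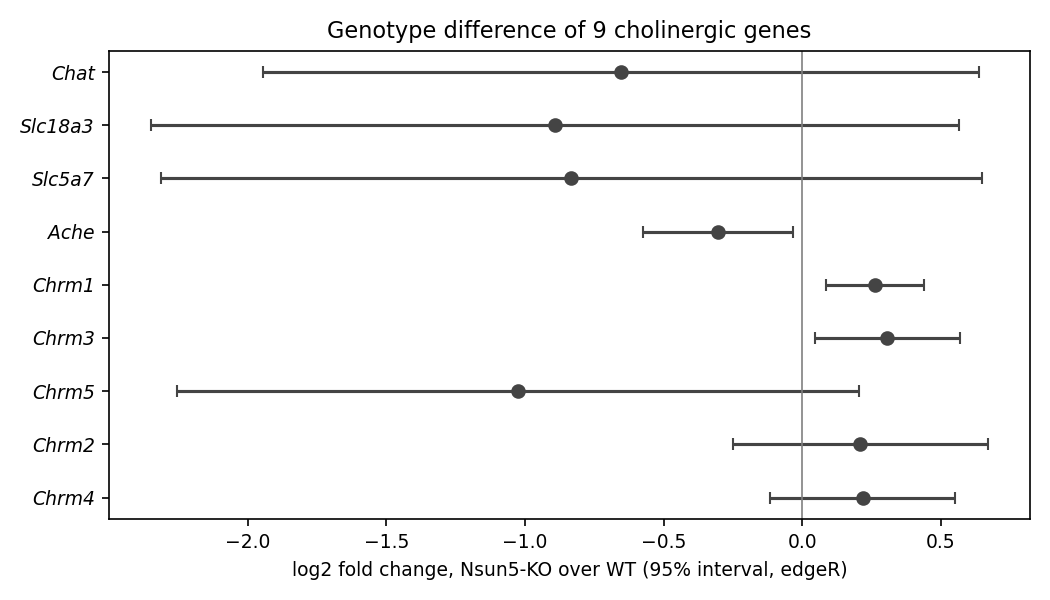
Log2 fold change (Nsun5-KO label over WT) of the 9 genes, with 95% intervals from edgeR's quasi-likelihood fit. The intervals of Chrm1, Chrm3 and Ache lie off 0 before adjustment, and those of Chat, Slc18a3, Slc5a7 and Chrm5 are the widest.

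The signalling partners of the muscarinic receptors had 20 of 29 tested members above WT and a median of 0.09. None was called over all genes, and at an unadjusted p below 0.05, 6 were higher (5.30% of all genes) and 1 lower. Grk2, the kinase that desensitises muscarinic receptors, was at 220.4 ± 12.6 CPM in WT and 252 ± 12.9 CPM in Nsun5-KO (log2 fold change 0.19, edgeR adjusted p = 0.406). Gnai2, a Gi alpha subunit gene, was at 193 ± 11.5 and 172 ± 3.96 CPM (-0.17, edgeR adjusted p = 0.412). These 2 and Arrb1, a beta-arrestin gene (0.17), were the 3 of 29 without overlap, against 5.70% of all genes. Rgs6, a regulator of Gi/o signalling, was at 54.1 ± 11.3 and 70.3 ± 10.1 CPM (0.38, edgeR adjusted p = 0.434). The Gq alpha subunit genes Gnaq and Gna11 were at 0.04 and 0.05, and the M-current channel genes Kcnq3 and Kcnq5, which muscarinic receptors close, at 0.19 and 0.21. The G protein-gated potassium channel genes Kcnj3, Kcnj6 and Kcnj9, which Chrm2 and Chrm4 open, were at 0.23, 0.23 and 0.39.

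Of the 16 nicotinic subunit genes, 9 were tested, 0 were called and 0 had an unadjusted p below 0.05 (median -0.12, but 0.13 without WT replicate 1 and 0.04 without Nsun5-KO replicate 3). Chrnb2 and Chrna4, which form the main nicotinic receptor of the brain, were at 71.3 ± 5.45 and 65.6 ± 4.20 CPM (log2 fold change -0.12) and at 40.3 ± 6.10 and 45.5 ± 4.89 CPM (0.18), and Chrna6 was at -1.06 with a 95% interval of -3.63 to 1.51. Chrnb4, a subunit of the medial habenula, was too sparse to be tested, at 6, 13, 43 and 37 counts in WT and 7, 5, 6 and 10 counts in Nsun5-KO. Of 8 tested proteins that assist or restrain nicotinic receptors, 0 were called, with a median of 0.11, and 2 members had an unadjusted p below 0.05, both higher (5.30% of all genes). Lypd6b was at 10.1 to 19.1 CPM in WT and 13.6 to 24.7 CPM in Nsun5-KO (log2 fold change 0.51), and Lypd6 at 26.6 to 33.1 and 31.2 to 33.8 CPM (0.19). Lynx1, a membrane-bound modulator of nicotinic receptors, was at 403.7 ± 89.4 and 509 ± 63.5 CPM (0.33). The edgeR adjusted p of these 3 was 0.459, 0.481 and 0.487. Lypd1 and Ly6h, of the same protein family, lay on the other side, at -0.80 and -0.29, and Lypd1 had the largest difference of the list.

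**Figure D5:**
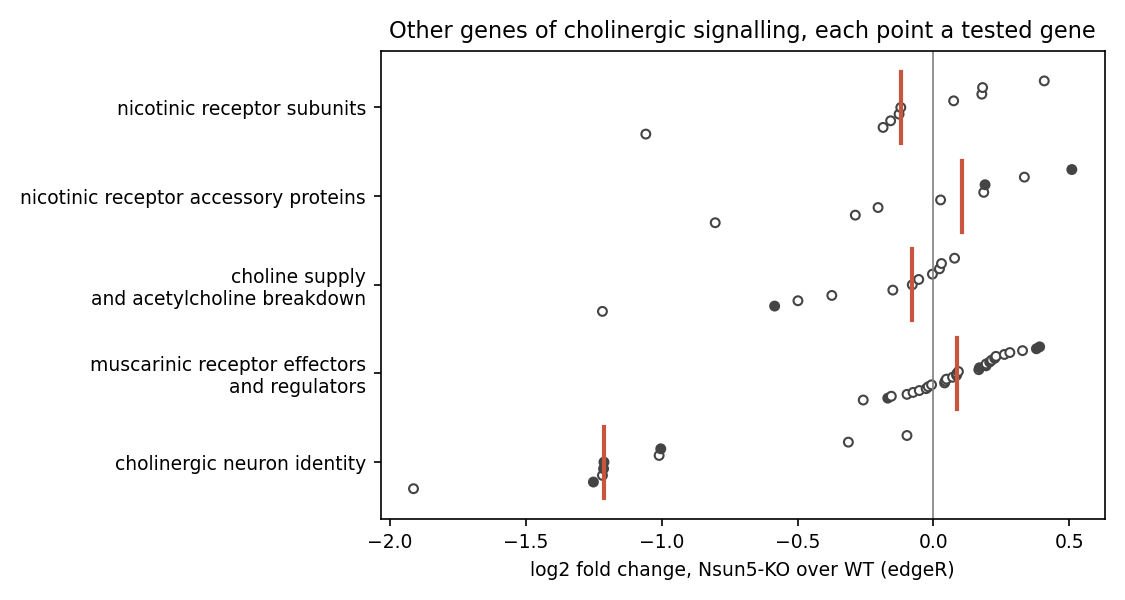
Log2 fold change (edgeR) of each tested gene in 5 lists of cholinergic signalling, with the list median as a red bar and filled points where the unadjusted p is below 0.05. The identity genes of cholinergic neurons are all below 0 with a median of -1.21, and the other 4 lists have medians of -0.12 to 0.11, of which that of the nicotinic subunits turns above 0 without WT replicate 1 or Nsun5-KO replicate 3.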

How the data were processed

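Reads were aligned with HISAT2 2.0.5 to mm10, per the submitters' processing notes, while the read counter is not given in the sources used, nor is the strandedness of the libraries. The authors deposited counts, whole reads per gene, and FPKM values, which are the counts over gene length and over a library constant of 0.981 to 1.02 times the library total. CPM was computed here on library sizes scaled with edgeR's trimmed mean of M values. Counts were tested with edgeR 4.0.16 (R 4.3.3; filterByExpr, robust quasi-likelihood test, no covariates, 8 libraries, Benjamini-Hochberg over all genes), after the same code was tested on simulated data. DESeq2 1.42.0 and limma 3.58.1 were alternatives. The labels number the libraries of a group but tie none to an animal, so p-values measure the spread between these libraries. No 2 libraries of a group agreed within sampling noise (chi-square per degree of freedom 7.22 to 20.4). Members and lists were chosen with earlier results of these data known. Named genes are the 9 members, the 3 smallest p of each cholinergic list, and the 5 profiles nearest to Chat and Chrm1 by root mean square difference in log2 CPM (prior count 2); other genes were named after their values were seen, as was the dopamine neuron list. A planned correlation among Chat, Slc5a7 and Slc18a3 is not given, because the libraries fell into separate sets. Same-numbered libraries deviated from their group means with correlations of -0.21 to 0.06, so the numbers do not pair them. Promoter sequences are from RefSeq (GRCm38.p6).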

Additional observations from a re-analysis of the deposited data

Results flagged for a closer look

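In groups of 4 libraries, a single library stood far from the other 3 in 6 of 66 groups examined, and chance gives about 1 in 20. WT replicate 1 accounted for 5 of them: Chrm4 at 16.7 CPM against 28.0 to 29.2 in the other WT libraries, Slc5a7 at 4.94 CPM against 15.5 to 16.7, Zic4 at 2.44 CPM against 7.68 to 8.59, Chrna6 at 11.4 CPM against 0.726 to 1.41, and the summed midbrain dopamine neuron list at 384 CPM against 111 to 149. The sixth was Ecel1 in Nsun5-KO replicate 4, at 18.9 CPM against 9.89 to 11.2 in the other libraries labelled Nsun5-KO. The 66 groups are not independent, since several of the genes and sums examined were highest in the same libraries. Pathway genes were also picked by their smallest p, so 6 of 66 cannot be read strictly against the rate of 1 in 20. The midbrain dopamine neuron list was chosen after its values were seen, so its outlier cannot be read against that rate at all.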

How the results depend on the processing

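The count of the 9 genes called stayed at 0 in all 30 settings run, among them other scalings, filters and tests, the replicate block (0 of 9, and 0 genes in all), and each library left out in turn. Over 22 of those settings Chrm1, Chrm2, Chrm3 and Chrm4 stayed above WT and Chat, Slc5a7, Slc18a3 and Ache below it, with adjusted p of at least 0.17 for each; Chrm5 reversed to 0.29 without WT replicates 1 and 2. The log2 fold change with single libraries left out ran from -1.07 to -0.37 for Chat, -1.45 to -0.52 for Slc5a7, -1.66 to -0.60 for Slc18a3, -0.40 to -0.20 for Ache, 0.21 to 0.30 for Chrm1, 0.066 to 0.39 for Chrm2, 0.22 to 0.40 for Chrm3, 0.057 to 0.29 for Chrm4 and -1.36 to -0.40 for Chrm5. The count of all genes called was 0 in the main test, 68 without the low-count filter, 94 with DESeq2, 0 to 2 with each library left out of edgeR, and, as a setting added after seeing the data, 43, 20, 251 and 170 with WT replicates 1 to 4 and 37, 65, 39 and 157 with Nsun5-KO replicates 1 to 4 left out of DESeq2 in turn. The cause was not tested. With single libraries left out, list medians ran from -0.16 to 0.13 for nicotinic subunits, which changed sign, 0.044 to 0.11 for accessory proteins, -0.18 to -0.053 for choline supply, 0.055 to 0.12 for muscarinic effectors and -1.48 to -0.92 for identity genes, and the Gq/11 share difference from -1.45 to 2.27 percentage points, which also changed sign. Depth limits Chrm5 and Slc18a3 most, at 9 to 93 counts in a library.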

Other observations

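Divided by the striatal sum of the same library, a scale chosen after seeing the data, the cholinergic neuron genes varied less between libraries. Per 1000 CPM of striatal transcripts, Chat was at 2.69, 3.27, 3.51 and 2.54 CPM in WT replicates 1 to 4 and at 2.49, 2.35, 1.73 and 2.45 CPM in Nsun5-KO, a spread of 2.03-fold against 6.50-fold for CPM alone. Slc5a7 was at 7.63, 5.89, 8.01 and 6.67 in WT and at 4.26, 4.39, 2.41 and 5.61 in Nsun5-KO. Its spread was 3.33-fold against 8.41-fold for CPM alone. Slc18a3 was at 1.62, 1.45, 2.06 and 2.27 in WT and at 1.08, 0.799, 0.752 and 1.60 in Nsun5-KO, with a spread of 3.02-fold against 8.48-fold. On this scale Chat and Slc5a7 had every Nsun5-KO library below every WT library, and Slc18a3 overlapped. For Chat the nearest libraries were Nsun5-KO replicate 1 at 2.49 (69 counts) and WT replicate 4 at 2.54 (104 counts). For Slc5a7 they were Nsun5-KO replicate 4 at 5.61 (266 counts) and WT replicate 2 at 5.89 (261 counts). Both gaps are within counting error. Over all tested genes 0.112% were separate in this direction, but most genes do not scale with the striatal sum, so this share is a weak background. Of the 12 striatal genes 0 were separate on this scale, but they make up the sum and are no independent background. The ratio was not tested.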
